A study of Mus musculus with 74 samples.

Results

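Glutathione S-transferases couple the tripeptide glutathione to reactive, mostly lipophilic molecules, and the liver is one of the organs richest in them. The cytosolic enzymes fall into classes named alpha, mu, pi and theta. Followed here were 9 of their genes: *Gsta2*, *Gsta3* and *Gsta4* (alpha), *Gstm1*, *Gstm2* and *Gstm3* (mu), *Gstp1* (pi), and *Gstt1* and *Gstt3* (theta). They were chosen by symbol, and all 9 were among the 14583 genes of the RNA-seq table. ChIP-seq peaks were theirs where the peak table named a member as the nearest gene, which gave between 17 and 60 peaks per table over 11 tables.

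The study asked how GPS2, a subunit of the HDAC3 corepressor complex, acts in hepatocytes together with the corepressors NCOR and SMRT and the fatty acid receptor PPARα. By the labels all mice were C57BL/6 on normal chow and 8 to 12 weeks old. Livers came from *Gps2* LKO, *Ncor* LKO, *Smrt* LKO and *Ppara* KO mice, each with its own WT group. *Gps2* LKO mice carried floxed *Gps2* alleles and Cre under the albumin promoter, which is active in hepatocytes, and their WT controls carried the floxed alleles without Cre. *Ppara* KO mice lacked the gene in the whole body, and the Cre line of the *Ncor* and *Smrt* LKO mice is not given in the labels. For ChIP-seq, several precipitations were pooled into each library. The study calls its replicates biological, but the labels tie no library to an animal, so p-values measure the spread between these samples.

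As background, many of these genes are known from mouse liver as targets of NRF2, which binds the antioxidant response element (ARE), and of the nuclear receptors CAR and PXR. *Gstp1* is known as a gene with higher expression in male than in female mouse liver. PPARα binds as a heterodimer with RXR to direct repeats of the hexamer AGGTCA with 1 base between them (DR1). Bulk liver tissue was measured, in which fewer cells of a type and less RNA per cell cannot be told apart.

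The regions to which the text returns are shown as 200-base windows on the plus strand of mm9, centred on the peak. Capitals mark each match, on either strand, to the ARE letters TGACNNNGC or to the hexamer AGGTCA. On the other strand this hexamer begins with the same letters as the ARE. The first window lies before the start site of *Gsta3* (chr1:21230406-21230605) and holds 1 ARE match. The second lies upstream of the annotated start of *Gsta2* (chr9:78196054-78196253), inside a longer GENCODE model of that gene, and holds 2 ARE and 2 hexamer matches. The third is in the last intron of *Gstm1* (chr3:107816207-107816406), with 1 ARE match. The fourth is intergenic, upstream of *Gstt1* (chr10:75267068-75267267), and holds 4 hexamers. The last covers the promoter of *Gstp1* (chr19:4037976-4038175) and holds no exact match to either set of letters. Near its left end the other strand reads TGAGTCAGC, which differs from the ARE letters by 1 base.
Gsta3 promoter: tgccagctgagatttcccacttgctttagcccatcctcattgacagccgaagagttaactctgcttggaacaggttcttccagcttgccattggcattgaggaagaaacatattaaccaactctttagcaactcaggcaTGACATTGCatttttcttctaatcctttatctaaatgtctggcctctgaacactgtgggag
Gsta2 upstream: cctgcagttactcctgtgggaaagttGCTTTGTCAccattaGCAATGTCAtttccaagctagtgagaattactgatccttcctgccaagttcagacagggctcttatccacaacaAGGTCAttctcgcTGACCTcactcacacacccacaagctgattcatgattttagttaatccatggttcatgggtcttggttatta
Gstm1 last intron: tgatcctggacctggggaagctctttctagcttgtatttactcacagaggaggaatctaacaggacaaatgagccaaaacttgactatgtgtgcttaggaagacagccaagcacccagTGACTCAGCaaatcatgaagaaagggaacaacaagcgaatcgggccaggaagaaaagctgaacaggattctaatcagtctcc
Gstt1 upstream: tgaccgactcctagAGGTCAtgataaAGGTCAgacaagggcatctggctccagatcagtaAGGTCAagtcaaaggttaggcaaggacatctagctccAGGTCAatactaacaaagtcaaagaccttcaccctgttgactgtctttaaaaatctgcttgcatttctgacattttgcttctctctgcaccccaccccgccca
Gstp1 promoter: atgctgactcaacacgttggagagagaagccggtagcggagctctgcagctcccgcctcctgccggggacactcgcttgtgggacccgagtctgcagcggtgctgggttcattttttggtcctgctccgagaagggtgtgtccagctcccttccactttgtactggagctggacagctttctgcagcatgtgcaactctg
Among all 35 peaks of these genes in the PPARα table of *Ppara* KO livers, 4 windows held an ARE match and 12 a hexamer, against 10.8% and 32.6% of all 40214 windows of that table. The DR1 letters, AGGNCA given 2 times with 1 base between them, matched none of the 35 windows, nor any of the 60 of the PPARα table of *Gps2* LKO livers, against 2.27% and 2.28% of all windows. A match is a description of letters and no measured site.

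RNA-seq of 4 WT and 4 *Gps2* LKO livers held 13194385 to 20086127 reads per library. The deleted gene itself had 237 to 287 reads in the WT and 148 to 194 in the LKO libraries, so that its mRNA was lower but not absent. LKO replicate 2 stood apart from the other LKO libraries, and every call at the 9 genes held without it. A gene was called at an adjusted p below 0.05 (edgeR quasi-likelihood test, Benjamini-Hochberg over 12220 genes). All 9 genes passed the filter on low counts and all 9 were called, 7 higher and 2 lower in LKO livers, while 23.4% of all genes tested were called higher and 21.4% lower (44.8% in either direction). The mu genes followed here and *Gstt3* rose, *Gstp1* and *Gsta2* fell, and the changes of *Gsta4* and *Gstt1* were small and depended on the fit.

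*Gstm1*, the most abundant mu enzyme, was at 1039, 1030, 1054 and 1029 CPM (TMM-normalised reads, scaled to a library of 1 M reads) in the WT libraries. In LKO libraries it was at 1874, 1494, 1313 and 1871 CPM. Every LKO library lay above every WT library, and the change was 0.66 ± 0.0962 on the log2 scale (estimate ± SE, adjusted p = 0.000141), or 1.58-fold. *Gstm2* stood at 15.3, 15, 14.9 and 15.5 CPM in WT and at 36.3, 26.6, 29.3 and 33.4 CPM in LKO libraries, again without overlap (log2 fold change 1.04 ± 0.098, adjusted p = 2.57e-06). *Gstm3*, which lies beside *Gstm2* in the mu cluster on chromosome 3, went from 41.7, 43.6, 41.5 and 37.8 CPM to 104, 91.3, 84.2 and 102 CPM. Its groups did not overlap, and its change was 1.21 ± 0.0805 (adjusted p = 7.73e-08). All 3 mu genes followed here were thus higher in every LKO library. The other mu genes tested did not share this rise as a class. *Gstm4* was called lower (-0.35, adjusted p = 0.00112) and *Gstm5* higher (0.46, adjusted p = 0.00239). *Gstm6* (0.08) and *Gstm7* (-0.07) were not called. The share of all genes tested whose groups did not overlap was not counted, so non-overlap in RNA-seq, here and below, has no background to compare with. Of all genes tested 23.4% were called higher, and of the 3148 genes no longer than the longest gene followed here 41%.

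The theta genes encode enzymes that act on small halogenated molecules, and they lie next to each other on chromosome 10. *Gstt3* was at 27.6, 27.6, 24.3 and 28.9 CPM in WT and at 74.8, 64.9, 70.5 and 75.8 CPM in LKO libraries. This was the largest rise among the 9 genes, at 2.64-fold (log2 fold change 1.40 ± 0.0781, adjusted p = 1.14e-08), with no overlap. Its neighbour *Gstt1* was at 172, 169, 167 and 165 CPM in WT and at 209, 177, 175 and 203 CPM in LKO libraries. Those groups did not overlap either, yet the change was only 0.18 ± 0.0683 (adjusted p = 0.0424). With an offset for gene length the direction of *Gstt1* turned, to -0.10 (adjusted p = 0.142).

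The alpha genes did not move together. *Gsta3*, the alpha gene with most mRNA, was at 1461, 1436, 1457 and 1543 CPM in WT and at 2258, 1669, 1982 and 2206 CPM in LKO libraries, a rise of 0.46 ± 0.0817 (adjusted p = 0.000639) without overlap. *Gsta4*, whose enzyme acts on lipid peroxidation products such as 4-hydroxynonenal, was at 41.7, 36.1, 38.4 and 41.8 CPM in WT and at 54.2, 36.7, 52.4 and 54.8 CPM in LKO libraries. One LKO library (replicate 2) lay within the WT range, and the call (0.32 ± 0.114, adjusted p = 0.0338) was lost with the gene length offset (0.02, adjusted p = 0.843). *Gsta2* was at 5.40, 5.65, 5.65 and 6.37 CPM in WT and at 5.53, 2.80, 3.78 and 3.46 CPM in LKO libraries. Of its LKO libraries 3 lay below every WT library and replicate 1 lay within the WT range, and the gene was called lower (-0.59 ± 0.174, adjusted p = 0.0143). It rested on 42 to 100 reads per library, and its close relative *Gsta1* had 0 to 7 reads.

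*Gstp1* encodes the pi class enzyme of hepatocytes. It was at 626, 584, 578 and 580 CPM in WT libraries and at 312, 241, 356 and 318 CPM in LKO libraries. Every LKO library lay below every WT library, with a fall of 0.95 on the log2 scale (SE 0.0933, adjusted p = 4.03e-06), and the LKO mean was 48.2% lower. *Gstp2*, a near-identical neighbour named here after its values were seen, had 68 to 94 reads in WT and 21 to 37 in LKO libraries (log2 fold change -1.40, adjusted p = 1.88e-05). How reads shared by the 2 copies were assigned is not given in the sources used here.

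**Figure D1:**
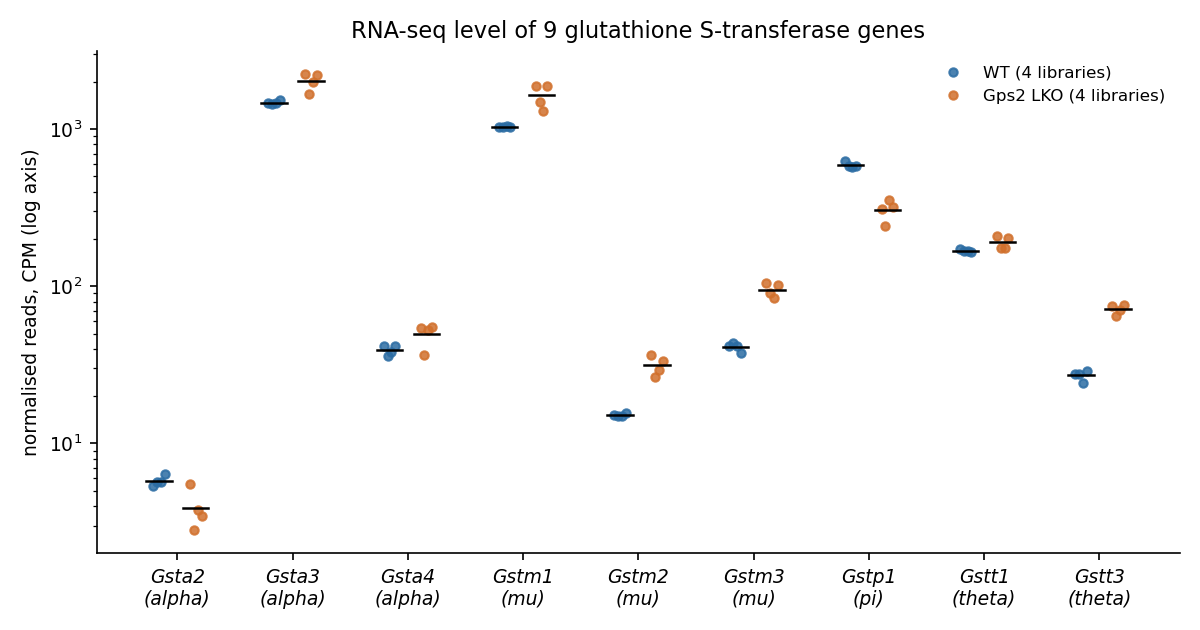
Normalised CPM (log axis) of the 9 genes in 4 WT (blue) and 4 Gps2 LKO (orange) libraries, with a point per library and a bar at the mean. Gstm1, Gstm2, Gstm3, Gsta3, Gstt3 and, by a small margin, Gstt1 lie higher in every LKO library, Gstp1 lies lower in every one, and Gsta2 and Gsta4 overlap.

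Per kilobase of exon, the order of the genes in WT livers was *Gsta3* at 916 ± 29.4 (mean RPKM ± SD, n = 4), *Gstm1* at 802 ± 8.74 and *Gstp1* at 796 ± 30.5, then *Gstt1* at 162 ± 2.90. *Gstm1* and *Gstp1* overlapped between libraries. Then followed *Gsta4* at 41.2 ± 2.88, *Gstm3* at 34.2 ± 2.00, *Gstm2* at 14.5 ± 0.266, *Gstt3* at 14.3 ± 1.02 and *Gsta2* at 6.74 ± 0.491, in which *Gstm2* and *Gstt3* overlapped. In LKO livers *Gstm1* (1266 ± 217) and *Gsta3* (1260 ± 167) shared the top, *Gstp1* was at 412 ± 64.1, and *Gstm3* (79.4 ± 7.77) had passed *Gsta4* (51.7 ± 8.99).

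The fold changes of all genes ran with exon length (Spearman's rho -0.403 over 12220 genes, which are not independent replicates). The 9 genes are short, with 744 to 1894 exon bases, and of the 3148 genes no longer than the longest of them 41.0% were called higher and 6.23% lower. With the length trend removed, *Gstm1* was at 0.41, *Gstm2* at 0.76, *Gstm3* at 0.96, *Gsta3* at 0.26, *Gstt3* at 1.26, *Gsta2* at -0.90 and *Gstp1* at -1.30 on the log2 scale, and these 7 stayed called in the same direction.

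**Figure D2:**
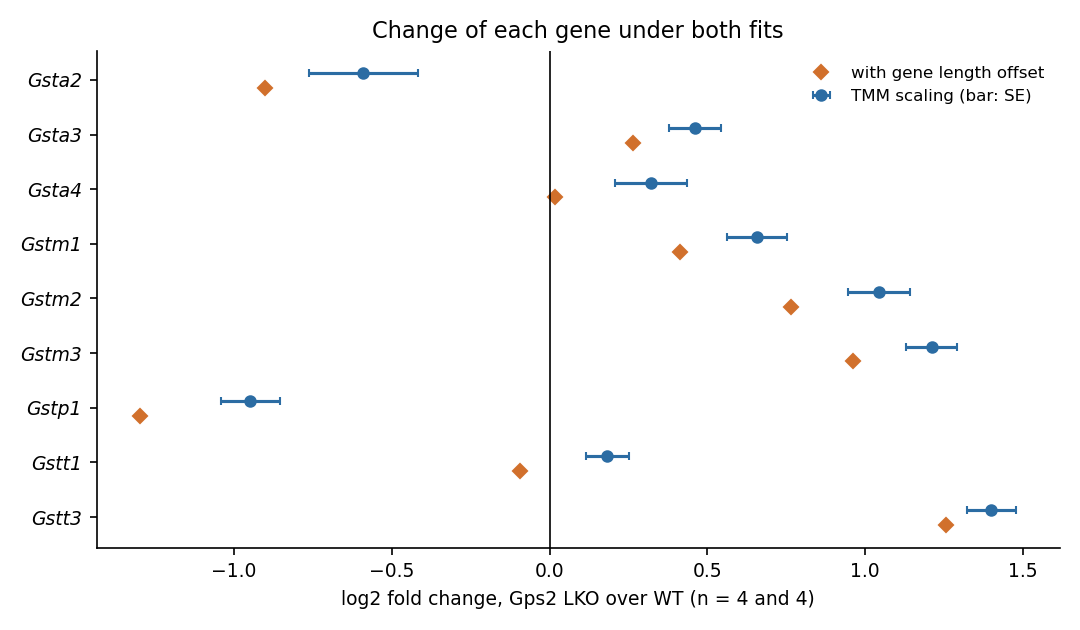
Log2 fold change of each gene in Gps2 LKO over WT livers (n = 4 and 4), as fitted with TMM scaling (circles, bar for the SE) and with an offset for gene length (diamonds). The offset moves all 9 values to the left, Gsta4 to 0.02 and Gstt1 to -0.10.

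The genes whose levels ran most closely with each member over the 8 libraries, outside the GST lists, were *Me1* with *Gstt3* (Pearson's r of log2 CPM 0.999), *Kng2* with *Gstm2* (0.998), *Spp2* with *Gsta3* (0.998), *Ifi27l2b* with *Gstm3* (0.996), *Sepp1* with *Gstm1* (0.994), *Slc22a7* with *Gstp1* (0.994), *Ndufa7* with *Gstt1* (0.993), *Myeov2* with *Gsta4* (0.991) and *Lcn2* with *Gsta2* (0.981). Each is the highest of all genes kept by the filter, the 8 libraries fall into WT and LKO, and the values are a description.

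Other genes of glutathione metabolism moved in both directions, where 23.4% of all genes tested were called higher and 21.4% lower. Of 13 other GST and microsomal transferase (MAPEG) genes tested, 6 were higher and 2 lower, with *Mgst3* the largest (1.69), at a list median of 0.23 against 0.03 over all genes. With the length offset the counts were 3 higher and 4 lower. Of 20 genes of glutathione synthesis, recycling and breakdown, 10 were higher and 5 lower, with *G6pdx*, which makes NADPH, the largest (1.97). The length offset gave 8 higher and 6 lower there, and moved the list median from 0.26 to 0.06. Of 14 glutathione peroxidases and reductive partners, 9 were higher and none lower, led by *Gpx8* (1.32), and the length offset gave 7 higher and 3 lower. Of 18 NRF2 axis genes other than GST genes, 8 were higher and 7 lower, with *Cbr3*, a carbonyl reductase, the largest (1.44). Of 9 CAR and PXR genes, 4 were higher and 2 lower, with *Ces2a*, a carboxylesterase, the largest (-0.89). The NRF2 and CAR and PXR lists thus split between both directions, and their medians were 0.06 and 0.19.

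Hepatocyte markers were abundant in all libraries (2 of 7 higher, 2 lower, summed at 112200 to 116100 CPM in WT and 147600 to 172700 in LKO). Zonal hepatocyte lists were mixed, with 4 of 8 pericentral genes higher and 2 lower and 4 of 7 periportal genes higher and 1 lower. Some markers of other liver cells were higher in LKO livers, where 23.4% of all genes were called higher. Called were, for stellate cells, 5 of 5 (summed CPM 134 to 140 in WT, 243 to 257 in LKO), Kupffer cells and macrophages 5 of 6 (89.4 to 94.8 and 124 to 137), cholangiocytes 3 of 5 (64.4 to 68.8 and 91.2 to 112), and endothelial cells 2 of 5 (104 to 111 and 115 to 126). The endothelial genes *Stab2* (-0.09, adjusted p = 0.499), *Kdr* and *Lyve1* were not called, nor were *Marco*, *Krt7* and *Sox9*, and none of these other cell lists had a gene called lower. Their part in the changes of the GST genes was not tested.

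The lists that moved most were those of sex-biased hepatocyte genes, which like the others were chosen with earlier results of these data known. Of all genes tested 23.4% were called higher and 21.4% lower. All 6 female-biased genes that could be tested were higher in LKO livers, with a median log2 fold change of 5.12. The list of 9 summed to 17.8 to 20.9 CPM in WT and 1214 to 1470 CPM in LKO libraries. The largest change was that of the cytochrome P450 *Cyp2b9* (8.74). The filter keeps a gene that has enough reads in either group alone. A gene almost silent in WT libraries was therefore testable only where LKO libraries were high, which partly fixes this count and median. Of 9 male-biased genes 8 were lower, with a median of -1.48, a sum of 7941 to 8443 CPM in WT and 5240 to 6628 CPM in LKO, and *Selenbp2* the largest (-2.71). The Y-linked *Ddx3y* had 1016 to 1771 reads in every one of the 8 libraries and *Xist* 0 to 15, as in male tissue. The part of this shift in the changes of the GST genes was not tested.

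GPS2 ChIP-seq of *Gps2* livers had 1 library per group, so that the difference has no replicate check, and intervals cover counting error only. In the WT library, the 36 GPS2 peaks of the 9 genes held 12 to 78 tags, and the tallest lay in an intron and upstream of *Gstt1*. The intronic *Gstt1* peak at +7638 bp held 50.3 tags per 10 M (10000000) total tags (exact Poisson 95% interval 39.8 to 62.8) in WT and 0.676 (0.0171 to 3.77) in LKO. The upstream *Gstt1* region printed above, with its 4 hexamers, held 45.2 (35.2 to 57.1) in WT and no tag in LKO, which against a floor of 3 tags is at least 22.3-fold lower. The upstream *Gsta2* region held 36.8 (27.9 to 47.7) and none, and the last intron of *Gstm1* 21.3 (14.7 to 29.9) and none. At the promoters of *Gsta3*, *Gstm1* and *Gstp1* GPS2 was at 14.2, 18.1 and 19.4 in WT, and at 1.35, 0.676 and 0.676 in LKO. All 36 peaks were lower in LKO by 2-fold or more, and 17 held no tag there, while 99.2% of all 49018 GPS2 peaks were past 2-fold lower.

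RNA polymerase II also had 1 library per group. At the peak nearest each of the 9 start sites the ratio of LKO to WT lay between 0.942 and 1.55, and each of the 9 intervals held 1. A further *Gstt1* peak at -85 bp held 48.9 tags per 10 M in WT and 31.1 in LKO, a ratio of 0.636 (0.409 to 0.979), whose interval did not hold 1. Upstream of *Gsta3*, peaks at -7833 bp (1.69, 1.16 to 2.47) and -8329 bp (1.57, 1.03 to 2.43) were higher in LKO, and their intervals did not hold 1 either. *Gstp1* held 239 tags per 10 M (interval 212 to 269) in WT and 226 (200 to 255) in LKO, a ratio of 0.945 (0.796 to 1.12), although its mRNA was lower. *Gstt3* was likewise at 0.945 (0.718 to 1.24) with higher mRNA, *Gsta3* at 1.09 (0.895 to 1.32), *Gstm1* at 1.14 (0.927 to 1.39) and *Gstm3* at 1.55 (0.715 to 3.51). Of 17 peaks 4 were past 2-fold higher, against 7.72% of all peaks, and none was past 2-fold lower (5.94% of all peaks). Of those higher, 1 was in a *Gstt1* intron (29.2 and 60.5), 1 near the *Gstm1* transcript end (12.0 and 25.2) and 2 were upstream of *Gsta2*, with at most 10 tags each.

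Histone marks of *Gps2* livers had 2 libraries per group. Acetylation of H3K27 marks active promoters and enhancers, and H3K4me3 marks promoters. H3K27ac summed over the peaks of each gene lay higher in both LKO than in both WT libraries for 8 of 9 genes, as it did for 31.5% of all 15930 genes with such peaks. It lay lower for *Gstp1*, as for 14.2% of all (779 and 696 tags per 10 M in WT, 667 and 646 in LKO). For single peaks, 1 of 19 tested was called, against 1.42% of all peaks (1.21% higher, 0.212% lower). It spans 22.3 kb over *Gsta3* and held 1417 and 1412 in WT and 1881 and 1885 in LKO (log2 fold change 0.41 ± 0.0765, adjusted p = 0.0484). Under TMM scaling its adjusted p was 0.0649, and it was also not called by DESeq2 or when WT replicate 1 or 2 was left out. Among all peaks, 568 were called higher and 100 lower, and 285 and 97 with TMM. Without WT replicate 1 none of all 47108 peaks was called, and only 1 higher and 2 lower without WT replicate 2.

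At *Gstm2* and *Gstm3* H3K27ac lay higher in both LKO libraries without passing the test, and the *Gstm1* domain overlapped (755 and 677 in WT, 885 and 747 in LKO). The *Gstm2* domain held 184 and 159 in WT and 293 and 208 in LKO (0.55, adjusted p = 0.166), and that over *Gstm3* 127 and 123, then 186 and 158 (0.46, adjusted p = 0.122). The domain of 21.9 kb over *Gstt3* and *Gstt1* covers the start sites of both and that of a further protein-coding GENCODE model. It held 1180 and 1193 in WT and 1728 and 1327 in LKO (0.36, adjusted p = 0.213). Its H3K4me3 was the 1 of 8 member peaks called for that mark, against 0.916% of all peaks (0.798% higher, 0.118% lower), at 797 and 768 in WT and 1035 and 974 in LKO (0.36 ± 0.0645, adjusted p = 0.0168). The call was lost with DESeq2 and without WT replicate 2 or LKO replicate 1. Over *Gstp1*, H3K4me3 stood at 750 and 691 in WT and at 650 and 606 in LKO (-0.20, adjusted p = 0.365). The promoter peak of *Gsta4*, the only one of either mark centred within 1000 bp of a start site, was at 89.9 and 106 in WT and 139 and 121 in LKO for H3K27ac (0.41, adjusted p = 0.21), and at 146 and 160, then 198 and 173, for H3K4me3 (0.28, adjusted p = 0.711).

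H3K27ac was also measured in 3 *Ncor* WT, 3 *Ncor* LKO, 3 *Smrt* WT and 3 *Smrt* LKO livers, in a shared peak table. These 2 cohorts differ in sex-linked signal. The 5 peaks on the Y chromosome held 306 to 371 tags per 10 M in each of the 6 *Ncor* cohort libraries and no tag in any of the 6 *Smrt* cohort libraries. The peak at *Xist*, the RNA that silences an X chromosome in female cells, held 2.93 to 4.92 and 249 to 289. The labels give no sex, and the methods of the study describe male mice. WT and LKO of a cohort had the same pattern, so each knockout is compared within it, but between the cohorts the deleted gene and this difference cannot be told apart.

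**Figure D3:**
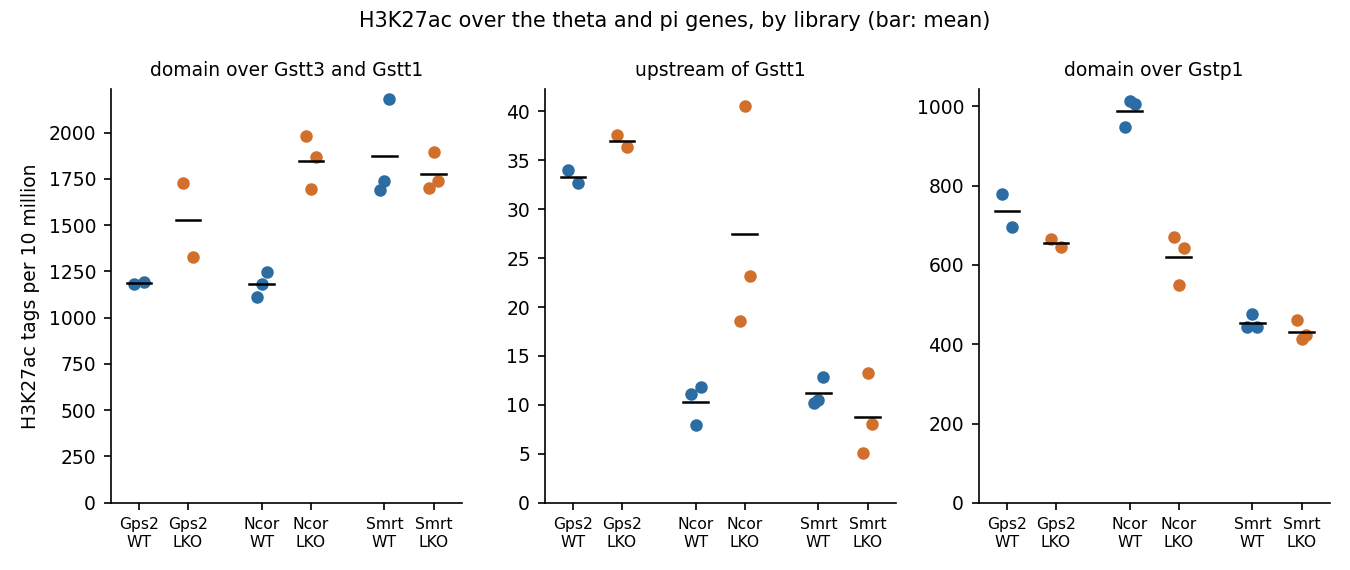
H3K27ac tags per 10 M tags, a point per library and a bar at the mean, in WT (blue) and LKO (orange) livers of the Gps2 (2 and 2), Ncor and Smrt (3 and 3) cohorts, over the domain of Gstt3 and Gstt1, a peak upstream of Gstt1, and the domain of Gstp1. In the Ncor cohort the first 2 are higher and the third lower in every LKO library, and in the Smrt cohort the groups overlap. Peaks of the Gps2 cohort come from another table with slightly other borders.

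In *Ncor* LKO livers H3K27ac over the theta genes and over *Gstp1* moved in opposite directions. No RNA was measured in these livers. Of 18 peaks 3 were called, 2 higher and 1 lower, against 3.12% of all peaks (2.32% higher, 0.801% lower). The 22.2-kb domain over *Gstt3* and *Gstt1* held 1111, 1181 and 1249 in WT and 1982, 1693 and 1868 in LKO, without overlap (log2 fold change 0.65 ± 0.0959, adjusted p = 0.00844). The domain of 10.7 kb over *Gstp1*, which touches *Gstp2*, held 948, 1014 and 1007 in WT and 671, 549 and 643 in LKO, also without overlap (-0.67 ± 0.101, adjusted p = 0.00881). Both lost their call without WT replicate 2 (adjusted p = 0.0538 and 0.0546).

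The third called peak (chr10:75266185-75267219), upstream of *Gstt1*, overlaps the printed window with 4 hexamers. It held 11.1, 7.91 and 11.9 in WT and 18.5, 40.5 and 23.2 in LKO (1.41 ± 0.3, adjusted p = 0.0344), and its call was lost when any WT library or LKO replicate 3 was left out. The mu and alpha peaks were not called. Their medians were -0.04 over 8 mu peaks and -0.27 over 7 alpha peaks, against 0.00 over all peaks, and the *Gsta4* promoter peak was at 60.7, 112 and 94.2 in WT and 55.6, 33.2 and 67.0 in LKO (-0.78, adjusted p = 0.177).

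In *Smrt* LKO livers none of 18 peaks was called by edgeR, as 0% of 68800 peaks in all, and 1 of the 18 had an unadjusted p below 0.05. DESeq2 called 47 of all peaks higher and 21 lower, and none of the 18. The theta domain held 1692, 1739 and 2182 in WT and 1700, 1894 and 1736 in LKO, and *Gstp1* 443, 476 and 444, then 461, 412 and 423. The *Gsta4* promoter peak was at 62.5, 67.0 and 130 in WT and 87.4, 88.3 and 65.4 in LKO. All 3 overlapped between groups. The difference between the *Ncor* and *Smrt* effects was 0.72 ± 0.142 at the theta domain (interaction in edgeR, adjusted p = 0.0448, and 0.053 with TMM), the only 1 of 18 called, against 0.426% of all peaks (0.33% higher, 0.0959% lower). Leaving out any *Ncor* WT library, *Ncor* LKO replicate 3, *Smrt* WT replicate 1 or *Smrt* LKO replicate 1 or 3 ended that call. At *Gstp1* it was -0.60 ± 0.125 (adjusted p = 0.0542, and 0.0503 with TMM).

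The 2 WT groups themselves stood apart at the same domains. The theta domain was at 1180 ± 69.1 (SD, n = 3) in *Ncor* WT and 1871 ± 270 (n = 3) in *Smrt* WT, and *Gstp1* at 990 ± 36.3 and 454 ± 18.6, or 2.18-fold lower in the latter. These 2 domains and a *Gstm3* peak at +2262 bp (108 to 217 against 104 to 108, which nearly touch) were the only 3 of 18 without overlap, 1 higher and 2 lower in *Smrt* WT, against 24.7% and 16.6% of all peaks. The difference was not tested, and sex pattern, cohort and breeding cannot be told apart. At the theta domain the 3 *Ncor* LKO libraries (1693 to 1982) lay within the range of the *Smrt* WT libraries (1692 to 2182). At *Gstp1* they did not, with *Ncor* LKO at 549 to 671 and *Smrt* WT at 443 to 476. How often this holds over all peaks was not counted.

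GPS2 binding in *Ncor* livers was measured in 3 WT and 3 LKO libraries. WT replicate 3 stands apart, with 3.07% of its tags in peaks against 8.23% and 7.82% in the other WT and 2.45% to 3.15% in the LKO libraries. With it, none of the 49 peaks was called (lowest adjusted p 0.0761), 25 had an unadjusted p below 0.05, and 0.0338% of all peaks were called. Without it, 36 of the 49 were called, beside 59.1% of all peaks called lower and 0.398% called higher. The median over the 49 was -1.30 against -1.12 over all peaks, and with TMM scaling it was -0.19, with 1 call.

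By class the median was -1.62 over 10 theta, -1.35 over 17 mu, -1.03 over 15 alpha and -0.70 over 7 pi peaks. At the upstream *Gstt1* region GPS2 was at 54.7, 44.9 and 10.7 in WT and 5.91, 23.6 and 8.31 in LKO (-1.55, adjusted p = 0.0926), where the groups overlapped through WT replicate 3. The last intron of *Gstm1* held 23.2, 19.1 and 4.29 in WT and 2.96, 2.95 and 3.64 in LKO (-2.25, adjusted p = 0.0761), and the promoter of *Gsta3* 21.6, 28.3 and 10.2, then 6.90, 8.27 and 8.83 (-1.30, adjusted p = 0.132). In both, every LKO library lay below every WT library. *Gstp1* had a pair of peaks there. The one nearest the start site, at +106 bp, was at 7.74, 11.6 and 5.36 in WT and at 2.96, 3.54 and 1.56 in LKO, without overlap (-1.58, adjusted p = 0.114). The one in the printed window, at -131 bp, was at 15.5, 23.3 and 4.29, then 11.3, 8.27 and 6.23, with overlap (-0.70, adjusted p = 0.379). Of all peaks 0 were called higher and 19 lower, and 999 and 258 with TMM.

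In *Ppara* KO livers (3 and 3 libraries) none of 25 GPS2 peaks was called (lowest adjusted p 0.19, 4 with an unadjusted p below 0.05), against 0.273% of all peaks, and none with TMM or DESeq2. The median was -0.84 against -0.93 over all peaks, and 0.07 with TMM. The upstream *Gsta2* region held 12.5, 11.7 and 20.8 in WT and 7.28, 10.6 and 3.61 in KO (-1.06, adjusted p = 0.238), and the *Gstp1* promoter 20.1, 9.10 and 21.6, then 18.9, 13.6 and 14.4 (-0.10, adjusted p = 0.879). The upstream *Gstt1* region was at 21.5, 24.1 and 41.6 in WT and 24.0, 17.4 and 5.77 in KO (-0.88, adjusted p = 0.272). The share of tags in peaks was 2.42% to 4.39% in WT and 1.07% to 2.06% in KO libraries, and its part in these values was not tested. All peaks gave 0 higher and 76 lower calls, and 15 and 27 with TMM.

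NCOR binding differed little. In *Gps2* livers none of 43 peaks was called by edgeR, 1 had an unadjusted p below 0.05, and DESeq2 called none, against 0.0173% of all peaks (0.0124% higher, 0.00495% lower). The upstream *Gstt1* region held 81.8, 75.5 and 45.2 in WT and 64.8, 94.1 and 42.3 in LKO (-0.01, adjusted p = 1), and the *Gsta2* region 31.7, 25.7 and 18.0, then 22.5, 40.6 and 11.9. Both overlapped. Every LKO library lay below every WT library at 4 of the 43, against 3.01% of all peaks, and at none did every one lie above (2.67% of all). The *Gstp1* promoter was at 14.5, 13.7 and 15.1 in WT and 11.3, 10.3 and 8.68 in LKO (-0.51, adjusted p = 1).

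In *Ppara* KO livers none of 58 NCOR peaks was called, 3 had an unadjusted p below 0.05, 1 was called with TMM and none with DESeq2, against 2.64% of all peaks (0.136% higher, 2.51% lower). The median over the 58 was -0.09 against -0.32 over all. The upstream *Gstt1* region held 115, 118 and 135 in WT and 106, 98.96 and 74.0 in KO, without overlap (-0.40, adjusted p = 0.253). The *Gsta3* promoter held 43.9, 41.3 and 56.5, then 38.4, 36.4 and 29.9 (-0.44, adjusted p = 0.439). By class the medians were -0.37 over 20 alpha, -0.08 over 12 theta, -0.01 over 20 mu and 0.00 over 6 pi peaks. All peaks gave 157 higher and 2885 lower calls, and 873 and 1206 with TMM.

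PPARα binding in *Ppara* KO livers (2 and 2 libraries) shows how much of the PPARα signal at these genes goes with the receptor. Of 35 peaks 9 were called lower, or 25.7%, against 27.6% lower (and 0.0174% higher) of all peaks, so the share at these genes was near that of the table. The upstream *Gstt1* region had the most tags, 21.2 and 22.9 in WT and 0 and 2.93 in KO (-3.88 ± 0.582, adjusted p = 0.000176), and it alone stayed called with TMM (-2.42, adjusted p = 0.00904). The *Gstt1* intron peak at +2501 bp fell from 12.0 and 18.4 to 1.37 and 1.47 (-3.33, adjusted p = 0.000556), and that at +7603 bp from 14.9 and 12.2 to 4.81 and 2.93 (-1.78, adjusted p = 0.0103). With these, 4 of 9 theta peaks were called, the other being upstream of *Gstt3*, at 17.0 and 6.88 in WT and 0.687 and 2.93 in KO (-2.70, adjusted p = 0.00876).

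At the alpha genes 3 of 12 peaks were called. Upstream of *Gsta2*, at -7238 bp, PPARα was at 12.7 and 14.5 in WT and 2.06 and 2.93 in KO (-2.41, adjusted p = 0.00251), and at the printed region 4.96 and 2.29, then 0.687 and 0 (-3.08, adjusted p = 0.0487). Called peaks at +5175 bp of *Gsta2* and +4372 bp of *Gstp1* held 3.54 and 3.06 in WT and none in KO (adjusted p = 0.0186 for both), and 1 of 13 mu peaks, at +2809 bp of *Gstm1*, 3.54 and 8.41, then 0 and 1.47 (adjusted p = 0.0499). The *Gsta3* promoter, with its ARE match, was at 5.66 and 10.7 in WT and 2.06 and 3.67 in KO (-1.49, adjusted p = 0.102), and the last intron of *Gstm1* at 1.42 and 1.53, then 2.06 and 0. Calls fell to 0 with DESeq2 and without WT replicate 1 or 2. Without either WT replicate none of all 40241 peaks was called. DESeq2, with its own scaling, placed the median of all peaks at -0.08, against -1.68 in the main fit. The share of tags in peaks was 2.14% and 2.44% in WT and 0.652% and 0.581% in KO. All peaks gave 7 higher and 11112 lower calls, and 181 and 1267 with TMM.

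In *Gps2* LKO livers PPARα tags were higher at most of these peaks, and so they were across the genome. The 3 WT libraries differed by less than sampling noise and were counted as 1 sample, against 3 LKO libraries. The adjusted p-values of this comparison therefore rest on the spread among the LKO libraries alone, with the WT sample assumed to vary like them, and the 3 WT values given for a peak are not separate replicates. Of 60 peaks 20 were called, all of them higher, or 33.3%, against 21.5% higher of all peaks (0.147% lower, 21.7% in either direction), and the median was 0.68 against 0.62. Tags in peaks were 19.2% to 21.9% in WT and 28.9% to 32.1% in LKO libraries. With TMM scaling, which sets the typical peak to no change, the median over the 60 was 0.08 and 1 peak stayed called, and DESeq2 called none. All peaks gave 22086 higher and 151 lower calls, and 553 and 445 with TMM.

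The peak that stayed lies at -3531 bp of *Gstm3* (chr3:107775523-107775722). It held 7.59, 9.50 and 11.3 in WT and 27.6, 36.0 and 43.4 in LKO (1.94 ± 0.354, adjusted p = 1.26e-05, and 1.34 with adjusted p = 0.0256 under TMM). GPS2 was present there, at 12.3 in WT and no tag in LKO in the single pair. The mu genes had 11 of 20 peaks called with a median of 0.87, the alpha genes 7 of 24 (0.68), the theta genes 2 of 10 (0.56) and *Gstp1* 0 of 6 (0.57).

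Among promoters, *Gsta2* went from 3.8, 10.5 and 3.38 to 25.3, 23.7 and 19.4 (1.83, adjusted p = 0.000574), although its mRNA was lower. *Gstm3* went from 22.8, 48.4 and 34.9 to 85, 74.8 and 73.3 (1.07, adjusted p = 0.00123), and *Gsta3* from 43.0, 42.7 and 47.3 to 78.2, 87.2 and 82.1 (0.90, adjusted p = 0.00591). *Gstm1* was called as well (0.74, adjusted p = 0.0406). Not called were *Gstp1*, at 21.5, 31.4 and 31.6 in WT and 49.4, 43.6 and 42.2 in LKO (0.64, adjusted p = 0.0802), *Gstm2* (0.87, adjusted p = 0.0582), *Gsta4* (0.68, adjusted p = 0.126), *Gstt3* (0.57, adjusted p = 0.114) and *Gstt1* (-0.09, adjusted p = 0.856).

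Other called peaks ranged from 0.67 at +2483 bp of *Gstt1* (73.4, 96.9 and 83.4 in WT, 157, 149 and 109 in LKO, adjusted p = 0.0381) to 1.48 at -12546 bp of *Gstm1* (11.4, 10.5 and 13.5, then 35.6, 20.8 and 39.9, adjusted p = 0.000883). The peak upstream of *Gstt3* (chr10:75245985-75246170) went from 44.3, 54.1 and 33.8 to 103, 92.8 and 88.0 (1.07, adjusted p = 0.001), and that at -5243 bp of *Gstm3* from 55.7, 59.8 and 49.6 to 149, 115 and 119 (1.2, adjusted p = 0.000269). At the printed regions, *Gsta2* was at 34.2, 35.2 and 32.7, then 50.6, 74.8 and 55.7 (0.82, adjusted p = 0.0163), and *Gstm1* at 15.2, 26.6 and 18.0, then 46.0, 29.4 and 33.4 (0.79, adjusted p = 0.0477). At the upstream *Gstt1* region the values were 99.98, 110 and 95.8, then 153, 154 and 143 (0.54, adjusted p = 0.0945).

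**Figure D4:**
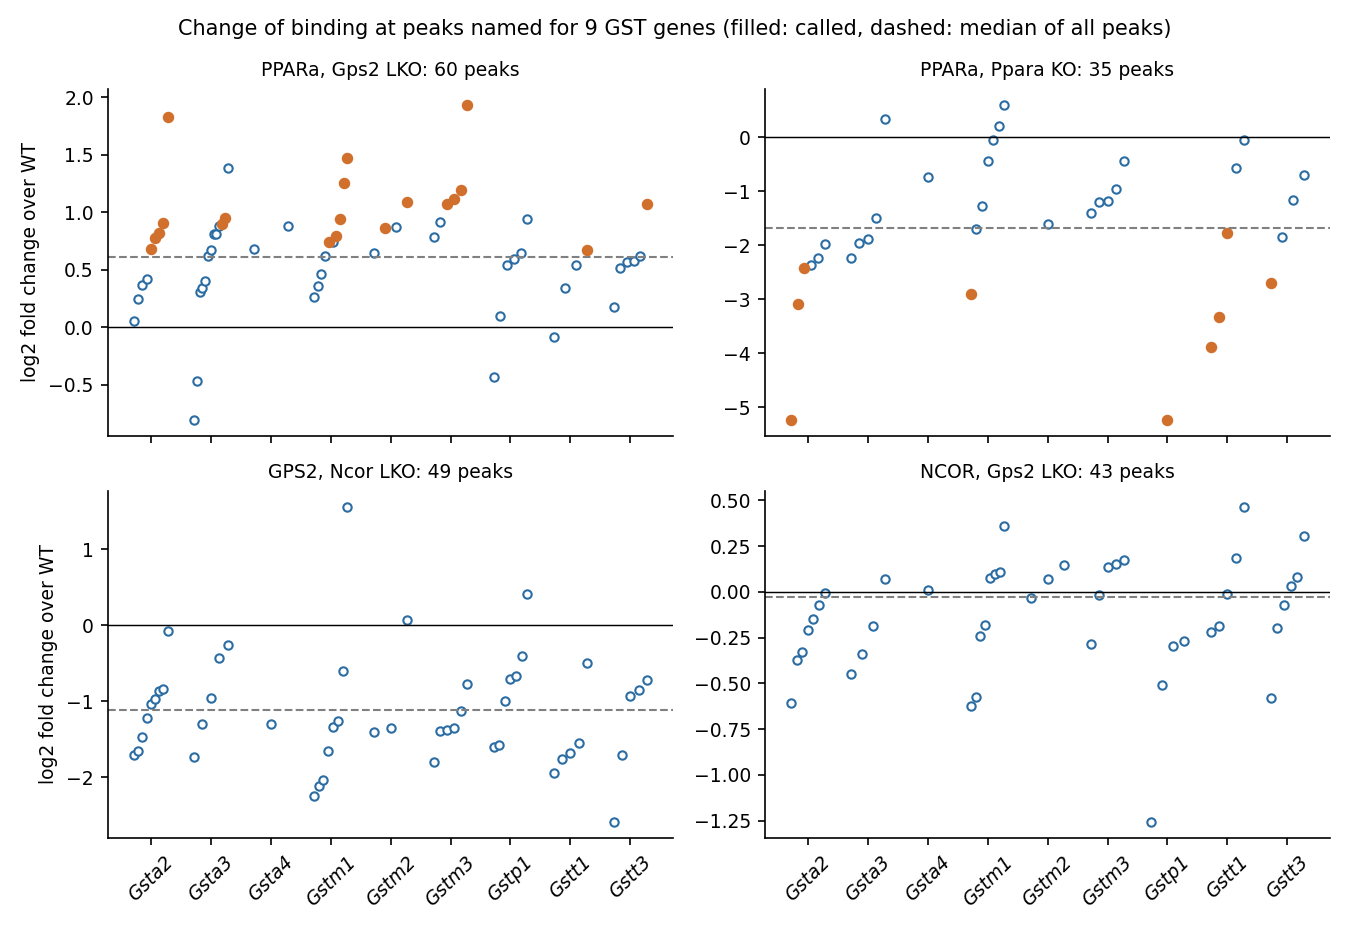
Log2 fold change over WT of each peak named for the 9 genes (x axis) for PPARα in Gps2 LKO and Ppara KO livers, GPS2 in Ncor LKO livers and NCOR in Gps2 LKO livers. Filled orange points were called, open points were not, and the dashed line is the median of all peaks tested. PPARα in Gps2 LKO livers has 20 filled points between 0.67 and 1.94, all above the median of 0.62 over all peaks, PPARα in Ppara KO livers has 9 and the other panels have none.

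In *Ncor* LKO livers (3 and 3 libraries) none of 57 PPARα peaks was called, 6 had an unadjusted p below 0.05, 3 were called with TMM and 1 without WT replicate 3, whose share of tags in peaks was 8.96% against 14.7% to 21.1% in the others. All peaks had 0.196% called (0.151% higher, 0.0453% lower). The upstream *Gstt1* region was at 83.9, 80.6 and 34.7 in WT and 49.6, 84.3 and 97.9 in LKO (0.22, adjusted p = 1), and the *Gstm3* promoter at 25.9, 28.8 and 16.6, then 34.8, 31.5 and 38.3 (0.55, adjusted p = 1). By class the median was 0.25 over 11 theta, 0.13 over 21 mu, 0.01 over 20 alpha and -0.62 over 5 pi peaks, against 0.10 over all peaks. All peaks gave 130 higher and 39 lower calls.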

How the data were processed

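RNA-seq read counts per gene and ChIP-seq tag counts per peak were deposited without normalization by the authors. Peaks are in mm9. The labels list Bowtie2, HISAT2, HOMER, SAMtools and featureCounts with the builds mm9, mm10 and GRCm38, the paper describes HISAT2 on mm9 with HOMER, and the exon positions in the RNA-seq table are those of GRCm38, so the counter and build of that table are not settled and none of its coordinates are given. The sources used here do not state strand or how reads of near-identical genes were assigned. The RNA-seq table also holds the authors' own fold changes, p-values and calls, which were not used.

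Of 74 libraries, 8 RNA-seq and 64 ChIP-seq libraries were used and the 2 inputs were not. RNA-seq was tested with edgeR 4.0.16 in R 4.3.3 (filterByExpr, TMM, quasi-likelihood test) and checked with DESeq2 1.42.0 and with a lowess offset (span 0.3) for exon length. Peaks with at least 1 tag were tested the same way with library size set to total tags. Peaks shared by H3K27ac and H3K4me3 were tested for a mark where its deposited lists overlapped them in at least 2 of 4 libraries. The score column that the authors deposited in those lists is 1 in every row, and only positions were used. Values are tags per 10 M total tags, and totals were 7901613 to 46106612 tags. Benjamini-Hochberg adjustment ran over all genes or peaks of a comparison. With 1 library per group there was no test, and a fold against 0 used a floor of 3 tags.

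The genes and lists were chosen with earlier results of these data known. Named were all 9 genes, each promoter peak (within 1000 bp) and every called peak, the largest called gene of each list (other GST and MAPEG, glutathione synthesis, peroxidases, NRF2, CAR and PXR, liver cell types, zones and sex-biased genes), and the gene most alike each member. The printed regions, the broad histone domains, *Gstp2*, *Gstm4*, *Gstm5*, *Gstm6* and *Gstm7* were named beyond that rule, after their values were seen. The fits were tested on simulated data. Sequences are from NCBIM37 (mm9), and plots were drawn with matplotlib 3.10.9. Alternatives were scaling, tool, filter, replicate number as a block and leaving out each library. For peaks, DESeq2 used its own scaling in place of total tags.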

Additional observations from a re-analysis of the deposited data

Results flagged for a closer look

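In a group of 4 libraries a value was singled out where its gap to the nearest library, over the whole range, exceeded Dixon's 95% critical value, which chance gives in about 1 of 20 groups, and 18 groups of RNA-seq values were looked at. *Gsta4* in *Gps2* LKO replicate 2 was at 36.67 CPM, with the next LKO library at 52.4 and the highest at 54.8 CPM (gap over range 0.871). *Gstp1* in WT replicate 1 was at 625.7 CPM, with the next at 584 and the lowest at 578 CPM (0.881). The *Gsta4* library is the one that stood apart over all genes, and without it *Gsta4* was called at 0.42.

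The effects of *Ncor* and *Smrt* deletion on H3K27ac over the *Gstt3* and *Gstt1* domain differed by 0.72 on the log2 scale (0.7205 in the interaction test of edgeR, adjusted p = 0.0448), with every *Ncor* LKO library above every *Ncor* WT library and overlapping *Smrt* groups. The call was lost with TMM scaling. Since the 2 cohorts also differ in Y chromosome and *Xist* signal, and the *Smrt* WT libraries already lay above the *Ncor* WT libraries there, the deleted gene and the cohort cannot be told apart.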

How the results depend on the processing

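In RNA-seq 7 genes were higher and 2 lower under TMM scaling, and leaving out a library gave 5 to 7 higher and 2 to 2 lower. Of 117 values for single genes under alternatives, 99 kept direction and call, 17 lost the call, and *Gstt1* reversed with the gene length offset, to -0.0952. *Gsta4* lost its call when any library but LKO replicate 2 was left out. *Gstt1* lost its call with RLE size factors, DESeq2, no filter, and without any WT library or LKO replicate 1 or 4. Of 823 values for named peaks, 601 kept direction and call, and 130 lost and 12 gained a call. The other 80 were called under neither fit and changed direction. Counts of called peaks moved as follows. For H3K27ac in *Gps2* livers (1) TMM gave 0, DESeq2 0, and single libraries left out 0 to 6. For H3K4me3 (1) DESeq2 gave 0, a fit on all rows 0, and libraries left out 0 to 1. For H3K27ac in *Ncor* livers (3) libraries left out gave 0 to 3, and for the *Ncor* against *Smrt* difference (1) TMM gave 0 and libraries left out 0 to 1. For GPS2 in *Ncor* livers (0) TMM gave 1, DESeq2 1, the filter on low tags 3, and libraries left out 0 to 36. For NCOR in *Ppara* KO livers (0) TMM gave 1 and libraries left out 0 to 1. For PPARα in *Gps2* livers (20) TMM gave 1, DESeq2 0, the 3 WT libraries as 3 samples 33, and libraries left out 13 to 24. For PPARα in *Ncor* livers (0) TMM gave 3 and libraries left out 0 to 1, and in *Ppara* KO livers (9) TMM gave 1, DESeq2 0, the filter 4 and libraries left out 0 to 6. Over all peaks the median for PPARα in *Gps2* livers went from 0.62 to 0.017 with TMM and 0.023 with DESeq2. In *Ppara* KO livers it went from -1.68 to -0.22 and -0.08. The cause of the changed counts was not tested.

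Deviations of samples with the same number correlated at 0.0147 to 0.102 in RNA-seq, and those of other numbers at -0.101 to 0.106. For GPS2 in *Ncor* livers the values were 0.00847 to 0.0932 and -0.0683 to 0.0486. Every same-number pair of these comparisons was thus above 0, but weakly. In no other comparison with 3 or more pairs was every same-number pair above 0. Pairs of 2 against 2 gave 0.174, 0.231 and 0.0381. The numbers were not used as pairs in the main fits. With the replicate number as a block the counts were 5 for H3K27ac in *Gps2* livers, 13 for GPS2 in *Ncor* livers and 0 for PPARα in *Ppara* KO livers, and no call on an RNA-seq gene was lost. The block could not be fitted for PPARα in *Gps2* livers, where WT is 1 sample. Over all peaks the calls of GPS2 in *Ncor* livers went from 19 to 10495 lower with the block and 1698 with the filter, those of H3K27ac in *Gps2* livers from 568 to 1993 higher with the block, and those of PPARα in *Ncor* livers from 130 to 1096 higher with TMM and 0 with the block. H3K4me3 went from 182 higher to 542 with the block and 30 on all rows, H3K27ac in *Ncor* livers from 1594 to 870 with the block and 2486 with DESeq2, NCOR in *Gps2* livers from 10 to 163 with the block, and NCOR in *Ppara* KO livers from 2885 lower to 452 with DESeq2 and 1867 with the block. GPS2 in *Ppara* KO livers went from 76 lower to 150 with the filter and 0 with the block. PPARα in *Ppara* KO livers went from 11112 lower to 455 with DESeq2, 7351 with the filter and 0 with the block, and in *Gps2* livers from 22086 higher to 15 with DESeq2 and 37518 with 3 WT samples. Peaks of few tags limit the transcription factor tables: in *Ppara* KO livers several called peaks rest on fewer than 10 tags per 10 M in every library.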
